A study of Strongylocentrotus purpuratus with 10 samples.

Results

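Solute carriers and other membrane transporters were examined in the list of genes that differed between brachyury morphants and controls in the purple sea urchin, Strongylocentrotus purpuratus. A gene was taken as a member when its description held "solute carrier", "transporter", "exchanger", "aquaporin" or "cotransporter". Of 3542 genes in the authors' deposited table, 116 descriptions held such a word. The functional classes Nervous and Biomineralization removed 2 of them, the words "mitochondrial", "multidrug" or "ATP-binding cassette" removed 2 more, and the organic cation transporter LOC585536 was left out by name, which leaves 111 members. The rule itself holds no measured value, but it was written with results of these data known, and every gene of the table had already passed the authors' threshold.

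Whole embryos were sampled at the blastula stage, 24 h after fertilisation. Polyadenylated RNA was sequenced from 3 libraries of embryos that received, as zygotes, 2 to 4 pl of a translation-blocking brachyury morpholino at 200 µM, and from 3 libraries labelled as wild type controls. Whether the controls were injected is not said in the labels, and a single morpholino was used. Brachyury ChIP-seq had 2 antibody libraries and 2 input libraries, 1 for each. Brachyury, a T-box regulator, acts in the vegetal plate and the oral field of the embryo. The series addressed its binding sites and the expression changes that follow its knockdown.

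The table gives 1 log2 fold change, p-value and adjusted p per gene, with no error and no value per library, so its fold changes stand here without a spread over the 3 libraries of each group. Every gene listed has an adjusted p under 0.05, and a transporter that is not listed is not analysed here. The file headers do not say which group is the numerator, and fold changes are therefore called negative or positive. If the numerator is the morphants, negative means a lower level there. RNA came from whole embryos, so fewer cells of a type and less RNA per cell cannot be told apart. Read totals are not in the files, and depth is unknown. In the authors' deposited table the brachyury transcript itself (LOC576774) stands at 1.18 log2 units, which is no check of a morpholino that blocks translation and leaves the mRNA.

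Solute carriers are membrane proteins that move sugars, amino acids, organic acids, vitamins, ions and metals along or against their gradients, often coupled to sodium or protons. Exchangers swap one solute for another across the membrane, cotransporters carry both the same way, and aquaporins pass water and, in some members, small solutes such as glycerol. In sea urchin embryos, uptake of amino acids from sea water and calcium and bicarbonate handling for the skeleton depend on such proteins. Roles given below for single genes are those known from mammals unless stated otherwise, and the sea urchin genes carry them through sequence similarity only.

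Transporter genes lay mostly on the negative side. Of the 111 members, 82 were negative and 29 positive in the authors' deposited table. Negative genes made up 73.9% of the members, against 51.6% of the whole table. The other side held 26.1% of the members, against 48.4% of the whole table. The median log2 fold change was -1.02 among members and -0.51 over all genes of the authors' deposited table. As genes past the threshold alone are listed, these are shares of called genes and not of all transporter genes.

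The difference between members and other genes lay in the number of genes on each side more than in the size of the negative changes. Among negative genes the median log2 fold change was -1.29 for members and -1.19 for the whole of the authors' deposited table, and among positive genes it was 1.05 for members and 0.93 for the whole table. Changes of at least 1 log2 unit in either direction were found for 73 members (65.8%), against 53.9% of the table. Of these 73 members 79.5% were negative, against 60.4% of the table's genes with a change of that size. Changes of at least 2 log2 units were found for 23 members, 19 of them negative and 4 positive, while 307 such genes were negative and 311 positive in the rest of the authors' deposited table. An adjusted p under 0.01 was reached by 79 members (71.2%), against 62.4% of the table.

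**Figure D1:**
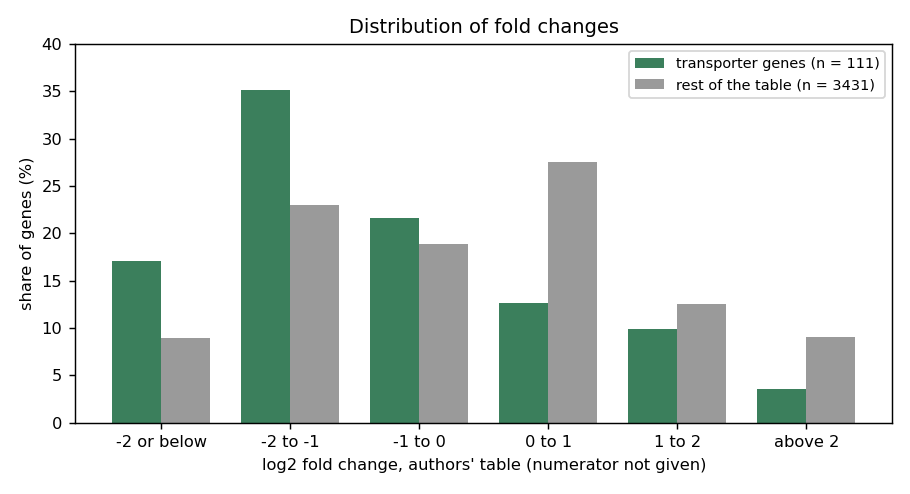
Share of genes (vertical axis, percent) in 6 classes of the authors' log2 fold change (horizontal axis) for the 111 transporter genes and for the 3431 other genes of the table. The class from -2 to -1 holds 35.1% of transporter genes and 23.0% of the others, and the class from 0 to 1 holds 12.6% and 27.5%.

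Grouped by substrate, 10 of 13 families held more negative than positive members, 2 held more positive ones and 1 was even. Sugar carriers (7 genes), aquaporins (2 genes) and phosphate carriers (2 genes) had no positive member. Carriers of vitamins, lipids and bile acids formed the largest family with 18 negative and 4 positive genes, followed by carriers of amino acids and peptides with 16 and 5 and of monocarboxylates and other organic acids with 13 and 4. Neurotransmitter carriers were the family with the highest median, with 3 positive genes and 1 negative gene.

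**Figure D2:**
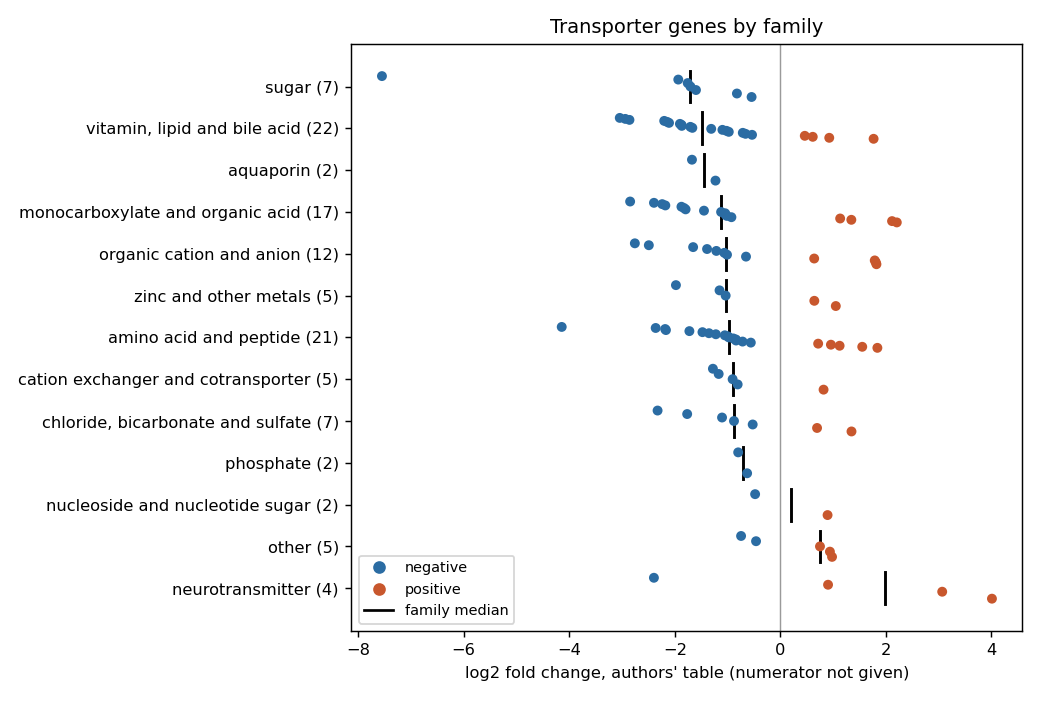
Log2 fold change of each transporter gene in the authors' table (horizontal axis) by substrate family (vertical axis, number of genes in parentheses), with negative genes in blue, positive genes in orange and a black line at the family median. Family medians run from -1.70 in sugar carriers to 1.99 in neurotransmitter carriers, and the lowest point is the gene described as a glucose transporter at -7.55.

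Genes of the SLC46 family, which includes folate carriers, were on 1 side throughout. All 9 genes described as proton-coupled folate transporters or as SLC46A3, a lysosomal member of the same SLC46 family, were negative, with log2 fold changes from -3.04 to -0.54 and a median of -1.87 in the authors' deposited table. Proton-coupled folate transporters take up the vitamin folate, a cofactor of nucleotide synthesis, together with protons. The gene of this group with the lowest adjusted p, LOC582728, stood at -1.87 (adjusted p 2e-06) in the authors' deposited table. LOC100889632 had the lowest value of the group, -3.04, (adjusted p 0.0411) in the authors' deposited table. LOC754028, described as SLC46A3, had the smallest change of the group at -0.54 (adjusted p 0.0152) there. LOC115918862 is described as a proton-coupled folate transporter but named Slc46a3 by the authors.

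Several of these SLC46 genes lie within 100 kb of each other, with scaffolds inferred from the order of the RefSeq gene table. In Spur_5.0, LOC100889632, LOC762767 and LOC115918862 lie on NW_022145606.1 between 9706228 and 9798569, with values of -3.04, -2.14 and -1.31 in the authors' deposited table. A further pair, LOC115918864 (-2.11) and LOC115918865 (-2.86), lies on the same scaffold between 11696554 and 11755452. LOC115918864 shares its transcript model with LOC100889632, and LOC115918865 shares its model with LOC762767, so this pair repeats models already listed. LOC582728 and LOC755719, each at -1.87 in the authors' deposited table, lie on NW_022145614.1 between 10982114 and 11092824. Only 6 transcript models stand behind the 9 genes, so they are not 9 independent measurements.

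Bile acid cotransporters of the SLC10 family showed 7 negative genes and 1 positive gene, with a median of -1.69. In mammals the ileal member takes up bile acids with sodium from the gut lumen, and related members carry steroid sulfates. LOC580301, described as the ileal cotransporter, had -2.94 (adjusted p 3.31e-08) in the authors' deposited table. LOC581539, described as SLC10A7, a Golgi protein whose human gene is mutated in a skeletal dysplasia, had -1.10 (adjusted p 9.6e-09) in the authors' deposited table. The 2 genes described as SLC10A6, which share 1 transcript model, had -1.67 (LOC578299) and -1.70 (LOC115919220) in the authors' deposited table. The positive gene, LOC105442910, had 1.77 (adjusted p 0.0128) in the authors' deposited table and is a long non-coding RNA gene in the RefSeq gene table.

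The remaining vitamin and lipid carriers were split. Choline transporter-like genes LOC100889933 and LOC588147 were positive at 0.93 (adjusted p 0.000821) and 0.46 (adjusted p 0.0283) in the authors' deposited table, whereas the high-affinity choline transporter LOC590588, a sodium-coupled carrier of the SLC5 family that feeds acetylcholine synthesis, was negative at -0.71. Of 2 genes described as the putative thiamine transporter SLC35F3, LOC574755 had 0.61 and LOC764407 -0.66 in the authors' deposited table.

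Monocarboxylate transporters of the SLC16 family, which include the proton-linked carriers of lactate and pyruvate, were the largest single gene family of the set, with 11 negative and 3 positive genes. Their log2 fold changes ran from -2.85 to 2.12 in the authors' deposited table, with a median of -1.28. LOC753960, described as MCT13, had -1.80 (adjusted p 3.69e-08) in the authors' deposited table. All 3 genes described as MCT14 were negative, at -2.39 (LOC586819), -2.18 (LOC115918985) and -1.45 (LOC583124) there. LOC586819 and LOC115918985 share 1 transcript model, and LOC583124 is named Slc16a6 by the authors. On the positive side stood LOC578046, described as MCT2, a lactate and pyruvate carrier, at 2.12 (adjusted p 0.000237) in the authors' deposited table. The authors name LOC578046 Slc16a14_1, and LOC586819 and LOC115918985 Slc16a14_3. By those names Slc16a14 genes lay on both sides. Genes with the same description did not always share a sign. Of the genes described as MCT9, LOC588000 (-1.87) and LOC575976 (-1.05) were negative in the authors' deposited table and LOC579204 (1.35) was positive, and MCT13 has a positive gene too, LOC579086 at 1.13.

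Other organic acid carriers included LOC588117, described as SLC13A5, the sodium-coupled citrate carrier, at -2.24 (adjusted p 7.17e-09) in the authors' deposited table. It had the lowest adjusted p among carriers of organic acids.

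Amino acid carriers were led by the cystine/glutamate exchanger SLC7A11, which imports cystine for glutathione synthesis. Its genes LOC115918368 and LOC588071 stood at -2.18 (adjusted p 8.19e-11) and -2.17 (adjusted p 8.85e-08) in the authors' deposited table, and LOC581521, with the same description, had -1.05. All 3 genes described as cationic amino acid transporter SLC7A4 were negative as well, from -1.48 to -0.99. The 2 genes described as the b(0,+)-type carrier SLC7A9, which exchanges cystine and basic amino acids for neutral ones, went the other way, at 1.55 (LOC582215) and 1.84 (LOC115918875) in the authors' deposited table. The SLC7 family as a whole therefore had 6 negative and 2 positive genes, on 5 transcript models. LOC115918368 shares its model with LOC588071, the SLC7A4 gene LOC753069 with LOC100887921, and LOC582215 with LOC115918875. The 8 genes are therefore not 8 independent measurements.

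Within the SLC43 family, LOC580733, described as the large neutral amino acid transporter small subunit, had 1.12 (adjusted p 0.0013) in the authors' deposited table and its neighbour on the scaffold, LOC100889901, described as SLC43A3, had -0.56 (adjusted p 0.0489). The value of LOC100889901 is the weakest call among the members. A second gene described as SLC43A3, LOC752074, had -1.35 (adjusted p 0.000532) in the authors' deposited table, the lowest adjusted p of the family. The gene described as the oligopeptide carrier SLC15A4, LOC115924573, had -4.14 (adjusted p 0.025) in the authors' deposited table.

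The SLC6 family, sodium- and chloride-coupled carriers of amino acids and transmitters, was split between its branches. All genes for glycine (3 genes) and proline (2 genes) carriers were negative. Glycine transporter genes lay between -0.89 and -0.72 in the authors' deposited table. Proline transporter genes LOC586383 and LOC589614, which share 1 transcript model, had -2.36 and -1.72 there. LOC115922253, described as a sodium-dependent alanine transporter, named Sp-Glyt_1 by the authors and listed as a transcribed pseudogene, was positive at 0.72 (adjusted p 0.00958) in the authors' deposited table. LOC115926893, described as the noradrenaline transporter, had -2.40. The betaine transporter gene LOC580339 and the GABA transporter gene LOC581958 had the 2 highest values of all members, 4.01 (adjusted p 0.0165) and 3.07 (adjusted p 0.00202) in the authors' deposited table. Betaine carriers take up an osmolyte, and GABA carriers clear an inhibitory transmitter. Both SLC transporters left out for their Nervous class, a GABA transporter (LOC585204, 1.95) and a vesicular acetylcholine transporter (LOC574696, 3.77), were positive in the authors' deposited table too.

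All 7 genes grouped as sugar carriers were negative, on 6 transcript models. The sodium/glucose cotransporter gene LOC593500 had -1.93 (adjusted p 1.36e-08) in the authors' deposited table, and the sodium/myo-inositol cotransporter gene LOC592979 had -0.82. LOC585105, described as the proton-associated sugar transporter SLC45A1, had -1.70 (adjusted p 3.28e-06) in the authors' deposited table. The sugar phosphate exchanger genes LOC756989 and LOC763356, SLC37 proteins of the endoplasmic reticulum, had -1.60 and -1.76 there and share 1 transcript model. LOC576724, described as SLC45A3, had -0.54 (adjusted p 0.0347) there, but is named Amt3 by the authors. LOC115927442 had the largest change of all members, -7.55 (adjusted p 0.00076) in the authors' deposited table, but its identity is unsure. It is described as the glucose transporter GLUT1, named Rlp2 by the authors and listed as a long non-coding RNA of 2271 bp in the RefSeq gene table.

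Organic ion carriers differed by family. Organic cation transporter genes of the SLC22 family, LOC588031 and LOC578342, had -2.76 and -2.49 in the authors' deposited table. LOC588031 carries a description written for LOC585536, the organic cation transporter that was left out, which had -2.80 there. The values of LOC588031 and LOC585536 may therefore not be independent. Both genes for the alpha subunit of the organic solute transporter, a basolateral carrier of steroids and bile acids, were negative at -1.06 (LOC755610) and -1.39 (LOC105441203) in the authors' deposited table. LOC755610 and LOC105441203 share 1 transcript model. Organic anion transporters of the SLCO family were even, with 4 negative and 4 positive genes on 7 transcript models. The positive gene LOC115925503 (1.79) overlaps LOC756186 and shares its model. The negative gene LOC115919798 (-1.01) is named TlrP16 by the authors. LOC756186, described as SLCO3A1, had 1.81 (adjusted p 1.64e-09) in the authors' deposited table, while LOC591667, described as SLCO4A1, had -1.65 (adjusted p 0.000935).

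Among inorganic ion carriers, the genes with calcium exchange in their description were all negative. LOC590169, a sodium/calcium exchanger gene that in its known role expels calcium from the cell, had -1.17 (adjusted p 1.68e-10) in the authors' deposited table. LOC105446911, with a similar description, had -1.28 (adjusted p 0.0242) there. It is a long non-coding RNA gene in the RefSeq gene table, and its description was written for another gene ID. The sodium/potassium/calcium exchanger gene LOC582498 had -0.81 (adjusted p 0.0245) in the authors' deposited table. The potassium-chloride cotransporter gene LOC578361, described as SLC12A4 and known for cell volume control, was positive at 0.82 (adjusted p 6.57e-06) in the authors' deposited table. Both proton/chloride exchangers of endosomes and lysosomes, LOC587217 (Clcn3) and LOC592346 (Clcn7), were positive at 0.70 and 1.35 in the authors' deposited table.

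Sulfate handling genes were on the negative side. The sulfate anion transporter genes LOC574650 and LOC115929571 of the SLC26 family had -2.33 (adjusted p 2e-05) and -1.77 (adjusted p 0.00164) in the authors' deposited table. They share 1 transcript model. Transporters of the activated sulfate donor PAPS into the Golgi, LOC578873 and LOC105439617, had -0.52 and -0.88 in the authors' deposited table.

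Zinc carriers went both ways. The ZIP proteins of the SLC39 family bring zinc into the cytosol. ZIP12 genes LOC115927289 and LOC587958 share 1 transcript model. They had -1.15 (adjusted p 5.25e-12, the lowest of all members) and -1.04 (adjusted p 9.31e-07) in the authors' deposited table. ZIP1 (LOC755663) had -1.98 and ZIP9 (LOC587373) had 0.64 there. The zinc exporter gene LOC584166 (Slc30a1), which moves zinc out of the cytosol, had 1.05 (adjusted p 4.66e-06) in the authors' deposited table.

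Water, ammonium and phosphate carriers were negative. Aquaporin genes LOC589852 (Aqp8) and LOC584831 (Aqp9) had -1.67 (adjusted p 0.00676) and -1.23 (adjusted p 0.00114) in the authors' deposited table, where the putative ammonium transporter gene LOC576657 had -0.74 (adjusted p 9.61e-05). The phosphate transporter gene LOC583305 of the SLC20 family had -0.80 and the vesicular nucleotide carrier gene LOC575379, described as SLC17A9, -0.63 in the authors' deposited table.

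The SLC35 family, nucleotide sugar and related carriers, had 4 negative and 2 positive genes, among them the thiamine and PAPS transporter genes above. LOC594453, described as SLC35F5, had 0.89 (adjusted p 3.41e-05) and LOC594082, described as SLC35E3, -0.48 (adjusted p 0.0309) in the authors' deposited table. LOC100891858, described as SLC18B1, a vesicular polyamine carrier, had 0.90 (adjusted p 0.00126) there.

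The rule also let in 3 genes described as ABC transporters and 1 mitochondrial carrier, whose descriptions lack the excluded words. LOC577756 and LOC100892846 are described as ABC transporter F family members, soluble proteins known for work at the ribosome, and had 0.94 and -0.46 in the authors' deposited table. LOC763956, an ABC transporter of the B family, had 0.98 and LOC577137, a member of the mitochondrial SLC25 family whose description lacks the word mitochondrial, had 0.75 there. Without these, 81 members were negative and 26 positive.

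**Figure D3:**
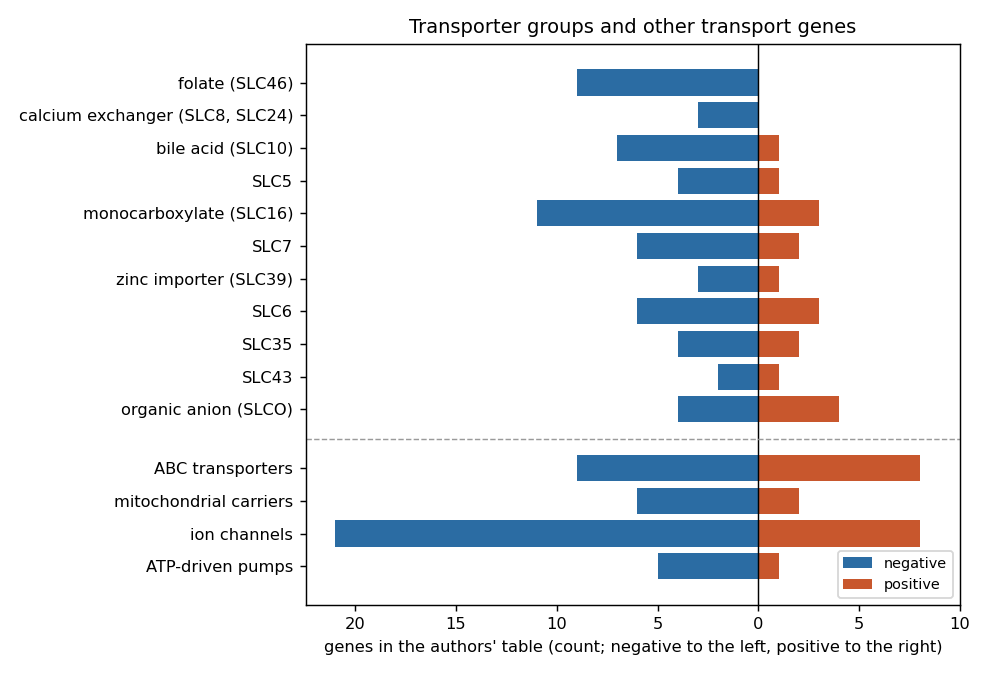
Number of genes with a negative (blue, to the left) and a positive (orange, to the right) log2 fold change in the authors' table, for transporter groups of at least 3 genes (above the dashed line) and for other membrane transport genes of the table (below it). SLC46 genes (labelled folate) stand at 9 negative and 0 positive, SLCO organic anion carriers at 4 and 4, and ABC transporters at 9 and 8.

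Other membrane transport genes of the table were counted in the same way. For comparison, negative genes made up 51.6% of all 3542 genes listed, with a median log2 fold change of -0.51. Among the members the share was 73.9% and the median -1.02. Channels, pumps (6 genes, median -0.84) and mitochondrial carriers (8 genes, median -0.94) leaned to the negative side too. That lean was therefore not limited to the members, while ABC transporters were nearly even. Genes with a channel in their description were mostly negative, with 21 negative and 8 positive genes and a median of -1.01 in the authors' deposited table. One of the positive genes, LOC592850 (0.79), is described as a linker of sodium channels and clathrin and is no channel itself. Among them, 6 of 7 TRPA channel genes and 5 of 6 TRPC channel genes, cation channels that open to chemical or receptor signals, were negative, whereas potassium channels were even at 3 and 3. The TRPA gene LOC576285 had -1.27 (adjusted p 1e-10) in the authors' deposited table. ATP-driven pumps had 5 negative genes and 1 positive gene. Subunits of the V-type proton pump went both ways in the authors' deposited table. Its catalytic subunit (LOC593614) had -1.59 and its subunit C (LOC764771) -0.94. The positive pump gene was its 16 kDa proteolipid subunit (LOC593221) at 0.56. The sodium/potassium pump gene LOC404637 had -0.74 there. Mitochondrial carriers had 6 negative and 2 positive genes, 1 of the negative ones being an acyl carrier protein that the words of the list caught and that is no transporter. ABC transporters, a superfamily that binds ATP and includes many efflux pumps, had 9 negative and 8 positive genes, and 2 of the positive ones, LOC576400 (1.10) and LOC581859 (0.53), are ABCF genes and so no pumps. The authors' deposited table gives -1.94 for LOC582918, described as multidrug resistance-associated protein 5, and 2.02 for LOC115922768, described as multidrug resistance-associated protein 4.

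Part of the count rests on repeated genes. The 111 members carry 72 different descriptions and 95 transcript models, and 35 members carry a description written for another gene ID. Genes in 16 pairs share a transcript model, and reads may be divided between near-identical copies, so their values are uncertain. In 13 pairs both genes were negative in the authors' deposited table, in 2 both were positive and in 1 the signs differed. The absolute difference in log2 fold change within a pair had a median of 0.26 and ran from 0.004 to 3.22. With 1 gene per description, 50 genes were negative and 22 positive (69.4% negative). With 1 gene per transcript model, 69 were negative and 26 positive.

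**Figure D4:**
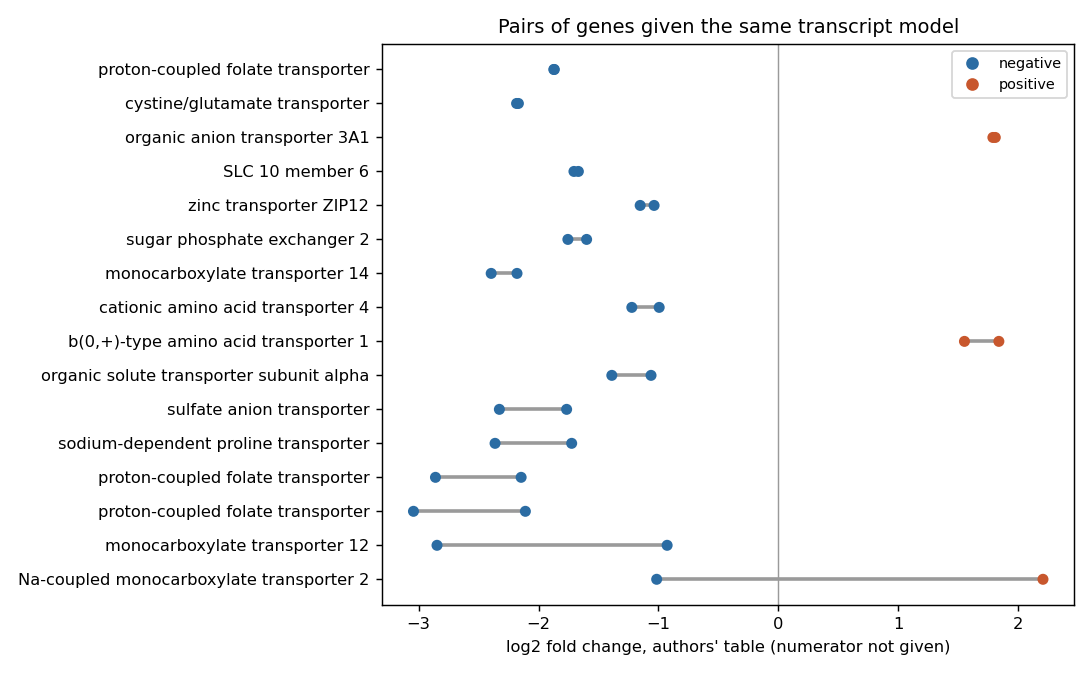
Log2 fold changes in the authors' table (horizontal axis) for the 16 pairs of transporter genes that share a transcript model (vertical axis), each pair joined by a grey line, ordered by the difference within the pair. In 15 pairs both points lie on the same side of 0, and the sodium-coupled monocarboxylate transporter pair has points at 2.21 and -1.01.

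The pair with opposite signs was the sodium-coupled monocarboxylate transporter, a cotransporter of lactate and short fatty acids. LOC115922531, a gene of only 637 bp, had 2.21 (adjusted p 0.0447) and LOC584046, of 34900 bp, had -1.01 (adjusted p 0.0139) in the authors' deposited table. The pair with the next largest difference was MCT12, at -2.85 for LOC115927275 and -0.93 for LOC763505, whose spans are 1536 and 5836 bp. A short span did not always go with a wide pair. The gene with the shortest span, LOC115925503 with 465 bp, overlaps its partner LOC756186 and differs from it by 0.02.

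Names and protein domains gave a partial check of the descriptions. Protein domains are listed for 93 of the 111 members, and the commonest, the Major Facilitator Superfamily fold of many solute carriers, stands on 32 members, 24 of them negative. Amino acid permease domains stand on 9 members, sodium:neurotransmitter symporter domains on 8 and sodium bile acid symporter domains on 7. For 6 members the authors' name points to another kind of protein, as with Rlp2 above, Elovl7L for a choline transporter-like gene or 3Bp1 for MCT7 (LOC100893623). Without these 6 genes, which were picked after their values were seen, 77 members were negative and 28 positive. Of the members, 107 are protein-coding in the RefSeq gene table, 3 are long non-coding RNA genes and 1 is a transcribed pseudogene.

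No transporter gene that could be placed carried a peak of the combined Brachyury set. Scaffolds of genes were inferred from the order of the gene table, and 102 protein-coding members could be placed. Of these, 0 were the nearest gene within 10 kb of any of the 490 combined peaks. If members were independent, this would allow a share of up to 2.94%. They are not, as some share a transcript model, so that limit is too narrow to set shares against. The share was 2.48% among the 2978 placed genes of the table and 1.19% among all 24774 placed protein-coding genes. With so few members, a count of 0 is not read as a difference from either. The count stayed at 0 within 5 kb, where 2.25% of placed table genes and 1.05% of all placed protein-coding genes had a peak, and with the higher-scoring peaks alone, where 1.07% and 0.581% had one. It was also 0 within 50 kb and with every gene span within 10 kb of a peak. There the shares were 3.09% and 2.99% of placed table genes, and 1.53% and 1.59% of all placed protein-coding genes.

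The longer single-library lists placed some peaks at transporter genes, all of low score. Antibody library 2 marked 16 of 102 members (15.7%), against 23.3% of placed table genes and 15.1% of all placed protein-coding genes. Such shares are not adjusted for span length, whose median was 19900 bp in placed members and 15400 bp in placed table genes. Among negative genes antibody library 2 marked 17.1% of members and 16.8% of the table, and among positive genes 11.5% of 26 members and 29.8% of the table. Its 22 peaks at members had scores from 0.52 to 1.16 and a median of 0.77, against a median of 0.72 over its whole list and 2.18 over the combined set. The scores, folds over input and false discovery rates are the authors' own values for each peak, and each list comes from 1 antibody library. Antibody library 1 marked 3 members (2.94%), against 5.57% of placed table genes and 3.96% of all placed protein-coding genes.

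The GABA transporter gene LOC581958 held the most peaks, 3 within its span of 84885 bp on NW_022145612.1. The highest of them, from 42762857 to 42763140, had an antibody signal of 1.84, an input signal of 0.68, a score of 1.16 and a false discovery rate of 6.29%. Over the 22 peaks of antibody library 2 at members that rate ran from 6.1% to 39.92%. For the 3 peaks of antibody library 1 it ran from 29.92% to 36.53%. LOC754028, described as SLC46A3, was marked in both lists. Antibody library 2 had a peak of score 1.11 inside its span (false discovery rate 6.1%). Antibody library 1 had a peak of score 0.60 at 7371 bp from it (false discovery rate 29.92%). Peaks of antibody library 2 lay also inside the glycine transporter gene LOC577626, the sodium/calcium exchanger gene LOC590169 and the MCT9 gene LOC575976, with highest scores of 0.93, 0.74 and 1.03. The SLC46 genes other than LOC754028 and the aquaporin gene LOC584831 had no peak in either list. The aquaporin gene LOC589852 could not be placed on a scaffold.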

How the data were processed

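The submitters' processing notes name BWA 0.7.17, DESeq2 1.28.1, Salmon 0.11.3 and Trimmomatic 0.38 without their roles. Reads were 100 bp paired for RNA and 50 bp single for ChIP per the labels. For every gene the authors deposited a log2 fold change, a p-value and its adjusted form. Peak score, antibody and input signal, fold over input and the distribution score, a fraction, are deposited per peak, and the false discovery rate is deposited in percent, per the file headers. The peak caller and the scaling of signal are not given in the sources used here.

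Only the authors' statistics were at hand, so no test was rerun. Members were described by counts, medians and ranges beside those of all 3542 genes. The members, families and lists were chosen with earlier results of these data known. Family words were completed after the descriptions had been seen, and the smaller gene groups were defined then too. By rule, genes named were the lowest adjusted p per family and side, the 5 largest changes per side, members with a combined peak and members sharing a description. Further members were named after their values were seen to describe each family, and so were the channels, pumps and ABC genes.

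All 3542 gene IDs matched the RefSeq gene table of Spur_5.0, in which nuclear genes lack a scaffold. Start positions in it rise block by block, and the 21 blocks over 20 Mb were matched, in their order, to the 21 scaffolds with over 100 peaks. In all 21 pairs every peak ended before the last gene, and block and accession numbers kept 1 constant offset. Members on other scaffolds (5) or not protein-coding (4) were left out of peak counts. A peak went to the gene span nearest its midpoint. Coordinates are counted from 1. Peak assignment was tested on simulated peaks planted at gene centres, which checks the lookup only. That test covers neither the inferred scaffolds nor the choice of the nearest gene. The software was numpy 2.4.6, scipy 1.17.1, pandas 2.3.3 and matplotlib 3.10.9 under Python 3.11.15. Sequences of members are not used here.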

Additional observations from a re-analysis of the deposited data

How the results depend on the processing

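The share of negative members stayed between 65.4% and 79.5% over 10 alternatives. Among changes of 1 log2 unit or more, 15 members were positive and 58 negative (79.5%), where 60.4% of the table is negative. With 1 gene per description 50 were negative. With descriptions that hold solute carrier or an SLC name only, 17 were negative and 9 positive, because most carriers are described by their substrate. Peak lists of a single antibody library gave 3 members with a peak (library 1) and 16 (library 2) in place of 0. With the family words as first written, 12 of 13 families held more negative genes, since the GABA and betaine carriers moved to the chloride family and the cystine/glutamate exchangers to the neurotransmitter family, which became 3 negative and 0 positive, and the genes in no named family became 10 negative and 7 positive, against 2 and 3. The other alternatives kept direction and stayed within 1.5 times. The 4 alternatives that left out members of conflicting name, ABC and SLC25 descriptions, non-coding genes or repeated transcript models, and the family words, were chosen after seeing the data. No replicate could be left out, and other normalizations and filters were not run, because the table holds no value per library. No paired analysis was possible because the columns carry no replicate. Depth is unknown, and what it limits could not be measured.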
